A study of Gallus gallus with 31 samples.

Results

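The genes described here were SEMA3C, SEMA3F, PLXND1, NELL2 and PTPRZ1, which encode secreted guidance cues and guidance receptors, in the anterior pituitary of growing chickens. They were taken as every array spot that carried 1 of these 5 gene symbols. This gave 13 spots of the 19200 printed, 8 of them named by the platform's gene table and 5 by the study's own list of genes that differed between the lines. The genes were chosen by their measured log2 ratios, as members of that list with a line difference or a line difference that changed with age, so the line differences below are given as a description without a test. A further spot, SEMA3C-b, was known only from a sequence match that the study gave for it, and its values are given beside the others. The spot named by the study carries the letter a, and the other spots of a gene follow as b, c and d.

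Transcript levels were measured in meat-type male chickens from lines divergently selected for high growth (HG) or low growth (LG), on juvenile body weight. The groups were HG and LG birds at 1, 3, 5 and 7 weeks after hatching, 31 birds in all with 1 array each. There were 4 birds per group except for HG week 1, which had 3. The lines were reared apart through week 3 and together afterwards, so that line and rearing cannot be told apart at weeks 1 and 3. At weeks 5 and 7, line and early rearing cannot be told apart either. Amplified RNA of each bird was labeled with Cy3 and hybridized on a spotted cDNA array against a Cy5-labeled pool of all samples, and every value below is the log2 ratio of bird over pool, where 1 unit is a doubling.

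Class 3 semaphorins are secreted proteins that steer growing axons and vessels. They act through plexins, usually with a neuropilin as the subunit that binds the ligand, and plexins change the cytoskeleton through small GTPases. SEMA3C can signal through plexin D1, SEMA3F binds neuropilin-2, and plexin D1 is best known from blood vessels and from axon targeting in the mouse. NELL2 is a secreted glycoprotein of neurons that binds Robo receptors in rodents. PTPRZ1 is a receptor tyrosine phosphatase of glia and their precursors that binds pleiotrophin, midkine and contactin-1. In the pituitary, guidance systems of this kind are studied for axons that reach the gland, for its capillaries and for the network of folliculostellate cells.

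Between 14786 and 18342 spots per array passed the scanner's flags (median 16781), and the median Cy3 signal was 2.58 to 6.28 times the local background on the different arrays. Of the printed spots, 17193 were tested. Pituitary hormone genes were bright, with median Cy3 signals of 83.9 times background for CGA, the shared subunit of the glycoprotein hormones, and 77.4 for PRL (prolactin), so that defining hormones of the labeled tissue were present. The file of the first HG bird at week 1 names week 3 in its header. The bird was kept at week 1 as labeled, and the week 1 difference without it is given below for each gene on the spot the study named. Nothing in the labels or file headers marked a hybridization batch.

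The 5 genes did not share a single pattern. On the spots the study named, NELL2 and SEMA3C were higher in HG birds at every week, PLXND1 was higher in HG birds on that spot but not on its other 3, PTPRZ1 was higher in HG birds with wide spread, and SEMA3F was lower in HG birds at week 7. The mean of the 4 weekly differences (HG minus LG) was above 0 on 10 of the 13 spots and below 0 on 3. It had the same positive sign at all 4 weeks on 6 spots and the same negative sign on 2. Over all 17193 tested spots, 8.83% were positive and 8.31% negative at all 4 weeks. Since the line contrast chose the genes, nothing is read from these shares.

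**Figure D1:**
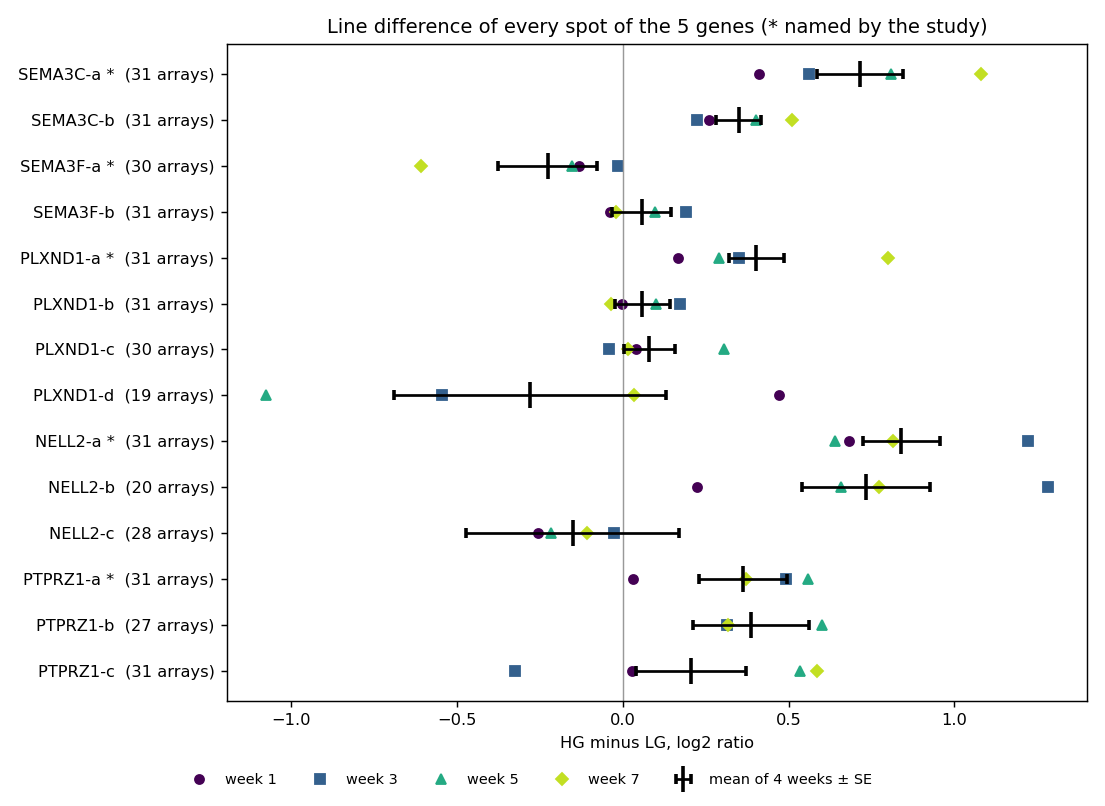
Difference HG minus LG (log2 ratio) for each spot of the 5 genes, with each week as a symbol and the mean of the 4 weeks as a bar with its SE from the fit across all spots. NELL2-a and NELL2-b lie farthest to the right at 0.84 and 0.73, and the spots on few arrays or with dim signal carry the widest bars.

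SEMA3C, the first of the secreted ligands, was measured by spot SEMA3C-a on all 31 arrays at a median Cy3 signal of 4.06 times background. At week 1 the ratios were 0.09, 0.03 and -0.20 in HG birds and -0.58, 0.16, -0.12 and -1.22 in LG birds. They were 0.58, 0.33, 0.19 and -0.19 in HG birds and -0.42, -0.39, 0.06 and -0.59 in LG birds at week 3. At both ages the lines overlapped, although the lowest bird was always an LG bird. Week 5 gave 0.42, 0.86, 0.84 and 0.14 in HG birds, against -0.44, -0.26, 0.04 and -0.31 in LG birds. By week 7 the HG birds had 0.33, 0.78, 0.76 and -0.32, and the LG birds -0.91, -0.79, -0.41 and -0.67. Every HG bird thus lay above every LG bird at weeks 5 and 7, a separation that 1.31% and 2.26% of all spots with 3 or more birds per group showed at those weeks in the same direction. The LG birds at 0.16 in week 1 and at -0.79 and -0.41 in week 7 had no deposited normalized value. In the deposited values of week 7 the lowest HG bird stood at -0.09 and the remaining LG birds at -0.63 and -0.19.

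The SEMA3C difference was 0.41, 0.56, 0.81 and 1.08 at weeks 1, 3, 5 and 7, with SEs of 0.27, 0.25, 0.25 and 0.25, and its mean of 0.72 (SE 0.13) equals a 1.64-fold higher level in HG birds. In the deposited normalized values the mean difference was smaller, at 0.45 (SE 0.07). At week 7 the level was 2.11-fold higher in HG birds. Ordered by group mean, the 4 HG groups stood first, with week 5 at 0.57 ± 0.35 (SD, n = 4), followed by weeks 7, 3 and 1 of the same line. The LG groups followed, down to week 7 at -0.69 ± 0.21 (n = 4). Of the 7 neighbouring pairs in this order, only HG week 1 and LG week 5 were farther apart than the larger SD of the pair. Their gap was 0.22 and the larger SD 0.20. Without the first HG bird at week 1 the week 1 difference was 0.35 (SE 0.32).

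Spot SEMA3C-b, which the study matched to semaphorin 3C, was higher in HG birds as well. All 15 HG birds were above 0 on this spot, between 0.10 and 0.57 with a median of 0.27, while 4 of 16 LG birds were above 0, in a range of -0.38 to 0.46 with a median of -0.11. Its difference was 0.26, 0.22, 0.40 and 0.51 at weeks 1, 3, 5 and 7, with a mean of 0.35 (SE 0.07). The spot chosen for its difference, SEMA3C-a, had the larger one, by 0.37, and no test was made of this gap between a chosen spot and another. The lines were separated on spot SEMA3C-b at weeks 1 and 7, as were 1.39% and 2.26% of all spots in this direction at those weeks. Within groups, the pair of spots did not vary together over the 31 birds (r = -0.19, rho = -0.23, adjusted permutation p = 0.861 for r and 0.866 for rho).

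SEMA3F, the other secreted semaphorin, overlapped between the lines at every week. On spot SEMA3F-a its group mean was lower in HG birds each time, though by very little at week 3. On spot SEMA3F-a, at a median Cy3 signal of 15.5 times background, the 3 HG birds of week 1 had -0.10, -0.38 and -0.42, and the LG birds -0.20, -0.52, -0.29 and 0.34. At week 3 the values were -0.31, -0.33, -0.36 and -0.09 in HG birds and -0.31, -0.63, 0.12 and -0.22 in LG birds. The HG birds lay within the range of the LG birds at both ages. At week 5 HG birds had -0.34, 0.88, 0.07 and -0.21, and the 3 LG birds with a value had -0.62, 0.38 and 1.00. HG birds of week 7 had -0.38, -0.30, -0.04 and 0.21, against 0.18, 0.05, 0.96 and 0.74 in LG birds. Only 1 of the 4 HG birds reached the LG range at week 7.

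The SEMA3F difference was -0.13, -0.01, -0.15 and -0.61 at weeks 1, 3, 5 and 7, with SEs of 0.31, 0.28, 0.31 and 0.28. Its mean was -0.23 (SE 0.15), and at week 7 the level was 1.52-fold lower in HG birds. Between week 7 and week 1 the fitted change was 0.17 (SE 0.31) in HG birds and 0.65 (SE 0.28) in LG birds. Group means ran between 0.48 ± 0.44 (SD, n = 4) in LG birds at week 7 and -0.30 ± 0.18 (n = 3) in HG birds at week 1, and none of the 7 neighbouring pairs in this order differed by more than the larger SD of the pair. Leaving out the fourth LG bird of week 5, the one at 1.00, moved the mean line difference to -0.13. Without the first HG bird of week 1 the week 1 difference was -0.23 (SE 0.35).

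The platform's own SEMA3F spot, SEMA3F-b, lies in the same print block and was dimmer, at 5.03 times background. HG birds ranged between -0.41 and 0.39 with a median of 0.02, and LG birds between -0.52 and 0.62 with a median of -0.05. The line difference was 0.06 (SE 0.09) over the weeks and -0.02 (SE 0.17) at week 7, and the lines overlapped at every week. The pair of spots had r = 0.32 and rho = 0.36 within groups over 30 birds (adjusted permutation p = 0.72 and 0.652).

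**Figure D2:**
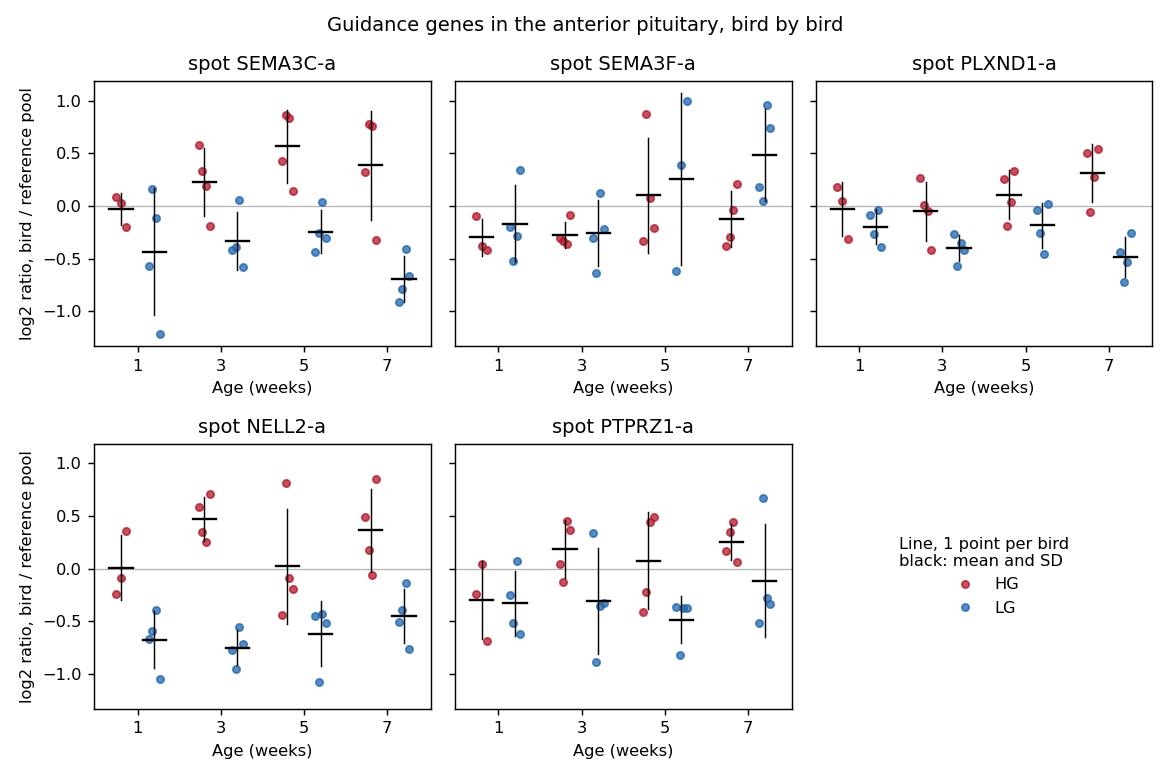
Log2 ratio of bird over reference pool for each of the 5 genes on the spot the study named, with 1 point per bird, HG left of LG at each week, and the group mean with its SD in black. The lines are separated for SEMA3C at weeks 5 and 7, for PLXND1 at week 7 and for NELL2 at weeks 1, 3 and 7, and they overlap at every week for SEMA3F and PTPRZ1.

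PLXND1, the plexin among the receptors, was printed as 4 spots that did not show the same picture. Spot PLXND1-a was named Plexin D1 in 1 list of the study and had no sequence match in another, so that its identity is less certain than that of the other 3. On this spot the week 1 values were 0.18, 0.05 and -0.32 in HG birds and -0.09, -0.27, -0.04 and -0.39 in LG birds. Week 3 gave 0.26, 0.01, -0.05 and -0.41 in HG birds and -0.26, -0.57, -0.36 and -0.41 in LG birds. The lines overlapped at these ages and again at week 5, when the HG birds had 0.25, -0.19, 0.03 and 0.34 and the LG birds -0.04, -0.25, -0.45 and 0.01. The overlap at week 3 came from the HG bird at -0.41 alone. Its signals were 1.58 (Cy3) and 1.67 (Cy5) times background, and it had no deposited normalized value. At week 7 the values were 0.50, -0.06, 0.27 and 0.54 in HG birds, all above the -0.44, -0.72, -0.53 and -0.26 of the LG birds. Of all spots, 2.26% were separated in this direction at week 7. LG birds were low throughout, with 1 of 16 above 0 (at 0.01), compared with 10 of 15 HG birds.

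The difference on spot PLXND1-a was 0.17, 0.35, 0.29 and 0.80 at weeks 1, 3, 5 and 7, with SEs of 0.17, 0.16, 0.16 and 0.16. The mean of 0.40 (SE 0.08) corresponds to 1.32-fold, and the week 7 value to 1.74-fold. Within the lines, week 7 minus week 1 was 0.34 (SE 0.17) in HG birds and -0.29 (SE 0.16) in LG birds. In the order of group means, HG week 7 stood highest at 0.31 ± 0.27 (SD, n = 4) and LG week 7 lowest at -0.49 ± 0.19 (n = 4). Among the 7 neighbouring pairs, LG weeks 1 and 3 alone were farther apart than the larger SD of the pair. Without the first HG bird the week 1 difference fell to 0.06 (SE 0.20).

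The PLXND1 spots of the platform table did not carry this difference. Spot PLXND1-b, at 7.55 times background, had a mean difference of 0.06 (SE 0.08) and spot PLXND1-c, at 9.36 times background, one of 0.08 (SE 0.08). At week 7 they stood at -0.03 and 0.01 (SE 0.16 and 0.15). In the same birds the difference of spot PLXND1-a was larger than that of spot PLXND1-b by 0.34 and that of spot PLXND1-c by 0.32, which is a description, since spot PLXND1-a was chosen for its difference. The fourth spot, PLXND1-d, had values on 19 arrays at 1.69 times background and was absent from the deposited normalized values. Its mean difference of -0.28 had an SE of 0.41 and is close to uninformative.

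From bird to bird, the brighter PLXND1 spots did not follow a common course. Spots PLXND1-b and PLXND1-c had r = -0.49 and rho = -0.50 within groups over 30 birds (adjusted permutation p = 0.189 and 0.318). Spot PLXND1-a had r = 0.11 with the first of these over 31 birds and -0.12 with the second over 30 (adjusted permutation p = 0.886 for both).

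NELL2, the secreted ligand of Robo receptors, had the largest difference of the 5 genes. On spot NELL2-a, at 9.06 times background, week 1 values were -0.24, -0.09 and 0.36 in HG birds and -0.67, -0.60, -0.39 and -1.05 in LG birds. At week 3 HG birds had 0.58, 0.35, 0.25 and 0.70, and LG birds had -0.77, -0.95, -0.56 and -0.72. All 4 HG birds of week 3 were above the pool and all 4 LG birds far below it. Week 5 gave -0.44, 0.81, -0.09 and -0.19 in HG birds and -0.45, -1.08, -0.43 and -0.51 in LG birds, where the lowest HG bird just reached the LG range. At week 7 the values were 0.49, 0.17, -0.06 and 0.85 in HG birds and -0.51, -0.39, -0.14 and -0.76 in LG birds. The lines were separated at weeks 1, 3 and 7, as were 1.39%, 1.91% and 2.26% of all spots in this direction at those weeks. None of the 16 LG birds rose above 0, while 9 of 15 HG birds did.

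The NELL2 difference was 0.68, 1.22, 0.64 and 0.81 at weeks 1, 3, 5 and 7 (SE 0.25, 0.23, 0.23 and 0.23), and the mean of 0.84 (SE 0.12) made the level 1.79-fold higher in HG birds. Ordered by group mean, all HG groups preceded all LG groups, with HG week 3 first at 0.47 ± 0.21 (SD, n = 4) and LG week 3 last at -0.75 ± 0.16 (n = 4). The step between the lowest HG group, week 1 at 0.01 ± 0.31 (n = 3), and the highest LG group, week 7 at -0.45 ± 0.26 (n = 4), was the only one of the 7 that exceeded the larger SD of its pair. The difference changed little without the first HG bird of week 1, at 0.81 (SE 0.28) for that week.

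A second NELL2 spot, NELL2-b, showed the line difference in the same birds on fewer arrays. It had values on 20 arrays at a median of 4.00 times background, and on 11 arrays in the deposited normalized values. Its signal varied widely between arrays, with the highest at 49.2 times background. The 4 LG birds of week 1 were near background, at 1.46 to 1.75 times. HG birds ranged between -0.40 and 1.12 with a median of 0.62 (n = 9), and LG birds between -0.61 and 0.25 with a median of -0.19 (n = 11). Of these, 7 HG birds and 3 LG birds were above 0. The mean difference of 0.73 (SE 0.19) was 1.66-fold, with weekly values of 0.22, 1.28, 0.66 and 0.77. Week 3 was the largest on both spots, although on spot NELL2-b it includes the near-background HG birds of that week named above. Within groups the pair had r = 0.52 and rho = 0.50 over 20 birds (adjusted permutation p = 0.72 and 0.866), and r = 0.16 without the 2 birds farthest from the median.

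The third NELL2 spot, NELL2-c, printed next to NELL2-a, was near background at 1.86 times and was kept on 1 array in the deposited normalized values. Its difference of -0.15 had an SE of 0.32 and turned to 0.08 without the fourth LG bird of week 3, which stood at 2.76. This spot gives no usable line difference.

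**Figure D3:**
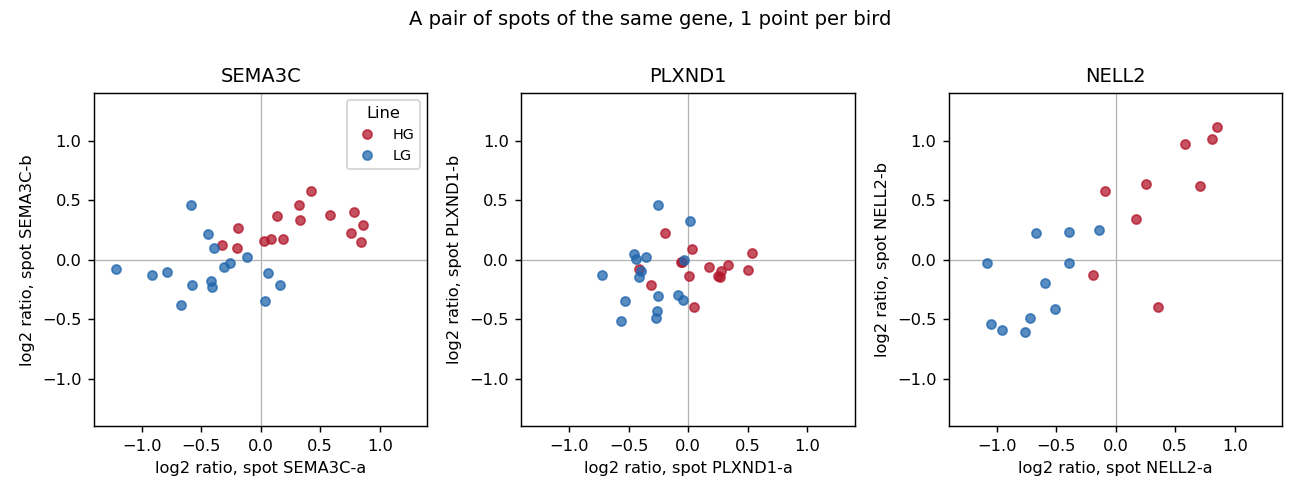
Log2 ratio of a pair of spots of the same gene in the same birds, 1 point per bird, for SEMA3C, PLXND1 and NELL2, with HG and LG birds in separate colors. HG birds lie mostly to the right of LG birds in all 3 panels and also mostly higher on the second spot of SEMA3C and NELL2, while the second PLXND1 spot, PLXND1-b, holds the lines at the same height.

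PTPRZ1, the receptor phosphatase, was higher in HG birds on average but with overlap at every week. On spot PTPRZ1-a, at 4.88 times background, week 1 values were -0.24, 0.04 and -0.69 in HG birds and -0.25, -0.51, 0.07 and -0.62 in LG birds. They were 0.04, -0.13, 0.45 and 0.37 in HG birds at week 3, against 0.34, -0.89, -0.36 and -0.32 in LG birds. The lines covered nearly the same range at week 1, and at week 3 a single LG bird stood among the HG birds. The week 1 HG birds at -0.24 and 0.04 and the LG bird at -0.25 were near background. Their pool signals were 1.68, 1.84 and 1.49 times background, and none of these birds had a deposited normalized value. At week 5 HG birds had -0.41, -0.23, 0.45 and 0.49, and LG birds -0.36, -0.82, -0.38 and -0.38. The HG birds of week 5 fell into a low pair and a high pair. Week 7 gave 0.17, 0.35, 0.45 and 0.07 in HG birds and -0.52, 0.67, -0.28 and -0.34 in LG birds, where the highest bird of all was an LG bird. That bird and the LG bird at 0.34 in week 3 had pool signals of only 1.79 and 1.73 times background. Neither had a deposited normalized value, nor had the HG bird at -0.41 in week 5. Among the remaining deposited values, the lowest HG and highest LG birds stood at 0.01 and -0.12 at week 3. They stood at -0.04 and -0.08 at week 5, and at 0.15 and -0.15 at week 7. At week 1 the only HG bird with a deposited value stood at -0.84, below the LG birds at -0.44, 0.17 and -0.78. The share of all spots separated in the deposited values was not computed, so nothing is read from these positions.

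The PTPRZ1 difference was 0.03, 0.49, 0.56 and 0.37 at weeks 1, 3, 5 and 7 (SE 0.28, 0.26, 0.26 and 0.26), with a mean of 0.36 (SE 0.13), or 1.29-fold. Without the first HG bird of week 1 the week 1 difference was 0.00 (SE 0.32). Both week 1 values rest in part on the birds near background named above. The group means lay between 0.26 ± 0.17 (SD, n = 4) in HG birds at week 7 and -0.48 ± 0.22 (n = 4) in LG birds at week 5. No neighbouring pair in their order was farther apart than the larger SD of the pair. Spot PTPRZ1-b, measured on 27 arrays at 6.22 times background, had a difference of 0.39 (SE 0.17), with 0.31, 0.31, 0.60 and 0.32 at the 4 weeks. Spot PTPRZ1-c, at 1.96 times background, had 0.21 (SE 0.17), which fell to 0.13 without the third HG bird of week 7. All 3 spots thus had a positive mean. Within groups, spots PTPRZ1-a and PTPRZ1-c had r = 0.46 and rho = 0.43 over 31 birds (adjusted permutation p = 0.189 and 0.318), and spots PTPRZ1-a and PTPRZ1-b had r = -0.03 and rho = -0.20 over 27 birds (adjusted permutation p = 0.97 and 0.866).

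Age was tested as the change over the 4 weeks averaged over the lines, a contrast the choice of genes did not use directly, although the study's fold criterion compared groups of any week. None of the 13 spots passed the test (limma, Benjamini-Hochberg adjusted p = 0.606 to 0.98), where 0.541% of all tested spots did, and none had an unadjusted p at or under 0.05, where 8.53% of all tested spots did. The lowest unadjusted p was 0.0598, for spot SEMA3F-a, whose change between week 7 and week 1 was 0.41 (SE 0.21). For the other genes on the spots the study named, week 7 minus week 1 was 0.08 (SE 0.19) for SEMA3C, 0.03 (SE 0.12) for PLXND1, 0.29 (SE 0.17) for NELL2 and 0.38 (SE 0.19) for PTPRZ1. Changes of the size of these SEs were not detectable with 3 or 4 birds per group.

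By line, the same change was 0.41 (SE 0.27) in HG birds and -0.26 (SE 0.25) in LG birds for SEMA3C. NELL2 had 0.35 (SE 0.25) in HG birds and 0.22 (SE 0.23) in LG birds. For PTPRZ1 it was 0.55 (SE 0.28) in HG birds and 0.21 (SE 0.26) in LG birds. SEMA3C and PLXND1 thus had opposite signs in the lines, and the other 3 genes the same sign. The study's choice also used the dependence of the line difference on age, so these values are a description as well.

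Whether the genes varied together among birds of the same line and week was asked with deviations from the group means, which do not contain the line difference. None of the 10 pairs between genes, on the spots the study named, passed the permutation test (100000 shuffles within groups, two-sided, adjusted over the 24 pairs tested, which include pairs of spots of 1 gene). SEMA3C, the ligand, and PLXND1, its receptor, had r = -0.08 and rho = -0.13 over 31 birds (adjusted permutation p = 0.886 and 0.866). These values hold for spots SEMA3C-a and PLXND1-a alone, and the identity of PLXND1-a is less certain. The largest r between genes was that of SEMA3F with NELL2, at r = 0.27 and rho = 0.16 over 30 birds (adjusted permutation p = 0.844 and 0.866), and r = 0.18 without the 2 birds farthest from the median of SEMA3F. This order did not hold in the deposited normalized values, where SEMA3F with NELL2 had r = 0.10 over 28 birds and the largest r was 0.53, for SEMA3C with PTPRZ1 over 22 birds (adjusted permutation p = 0.804). NELL2 and PTPRZ1 had r = 0.02 and rho = 0.07 over 31 birds (adjusted permutation p = 0.97 and 0.866).

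Each gene was taken here on the spot the study named. The genes whose pattern over all birds was most like that of each gene were found among 8084 named spots with at least 28 shared arrays (7542 for SEMA3F). These correlations are over birds of both lines, share the line difference and the pool, and are given without a test. The values within groups remove the group means, but not what arrays with the same replicate number share across groups. Of the 14 spots so named, 8 came from the study's list of genes that differed between the lines.

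PTPRZ1, on spot PTPRZ1-a, had the closest partners. MAN1C1, a mannosidase of the Golgi, had r = 0.90 over 29 birds and 0.82 within groups, and FLT1, a receptor for vascular endothelial growth factor, had r = 0.89 over 31 birds and 0.85 within groups. LHB, the beta subunit of luteinizing hormone, followed with r = 0.77 over 30 birds and 0.66 within groups. With the other spots of its own gene, spot PTPRZ1-a had r = -0.03 (PTPRZ1-b, 27 birds) and 0.46 (PTPRZ1-c, 31 birds) within groups. FLT1 values were -0.59, -0.07 and -0.79 in HG birds and -0.68, -0.73, -0.07 and -0.58 in LG birds at week 1. At week 7 they were 0.31, 0.15, 0.40 and -0.04 in HG birds and -0.61, 0.16, -0.40 and -0.47 in LG birds. The third LG bird at week 1 and the second at week 7, which were the highest LG birds for PTPRZ1 at those ages, were also the highest for FLT1. On spot PTPRZ1-a, the second LG bird at week 7 had a pool signal of 1.79 times background and no deposited normalized value. The MAN1C1 spot lies at row 2 and column 17 of print block 33, and spot PTPRZ1-a at the same row and column of block 35. The FLT1 spot lies at row 2 as well, in column 13 of block 40. The part of print position in these correlations was not tested.

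**Figure D4:**
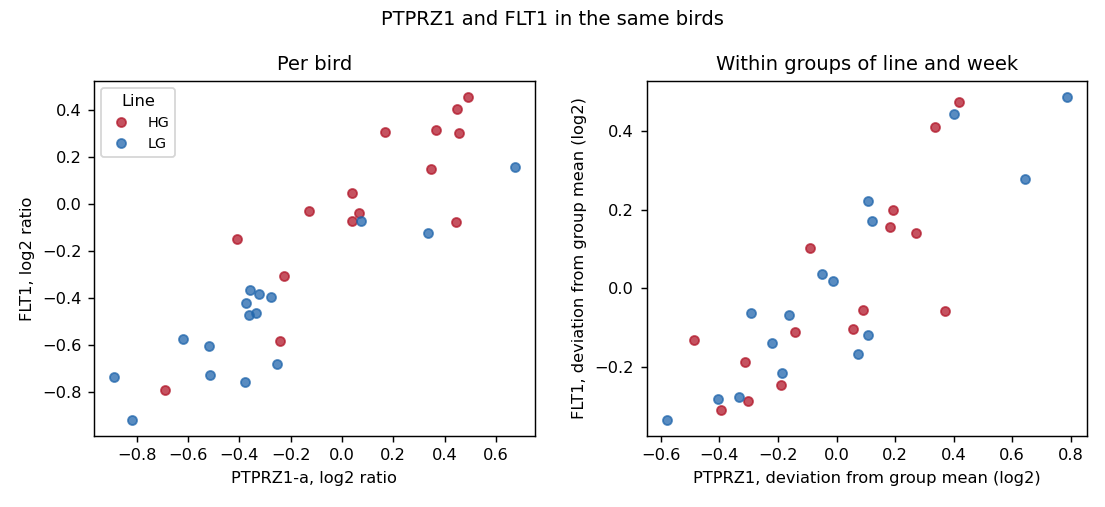
FLT1 against spot PTPRZ1-a in the same 31 birds, 1 point per bird, as log2 ratios on the left and as deviations from the mean of each group of line and week on the right. The points follow a common slope in both panels, with r = 0.89 on the left and 0.85 on the right.

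NELL2 was most like DTX3, a ubiquitin ligase of the Deltex family, with r = 0.89 over 30 birds and 0.61 within groups. HSD17B12, an enzyme of fatty acid elongation, had r = 0.76 and 0.36 within groups, and ALDOC, a glycolytic aldolase, r = 0.76 and 0.43, both over 31 birds. For PLXND1 these were SDC1, a heparan sulfate proteoglycan of the cell surface, with r = 0.81 and 0.47 within groups, HSD17B12 with 0.73 and 0.40, and MAN2B2, a mannosidase, with 0.70 and 0.44, each over 31 birds. The values within groups were clearly lower for these genes than over all birds.

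SEMA3F and SEMA3C kept most of their likeness within groups. SEMA3F was closest to ELMO2, an adaptor in Rac activation, with r = 0.83 over 30 birds and 0.80 within groups, then to MTG1, a mitochondrial GTPase (0.82 and 0.79, 30 birds), and BIRC8 (0.78 and 0.72, 29 birds). SEMA3C was closest to MRPL27, a protein of the mitochondrial ribosome, with r = 0.77 over 29 birds and 0.71 within groups, then to TIMP4, an inhibitor of metalloproteinases (0.76 and 0.69, 29 birds), and DARS, an aminoacyl-tRNA synthetase (0.75 and 0.76, 28 birds). ELMO2 differed between the lines by -0.59 (SE 0.19) and DARS by 0.13 (SE 0.09). The MRPL27 and DARS spots lie in print block 46, TIMP4 in block 4 and spot SEMA3C-a in block 45. ELMO2 and MTG1 lie in block 8, BIRC8 in block 28 and spot SEMA3F-a in block 4. What print position adds to these likenesses was not tested. With spot SEMA3C-b of its own gene, SEMA3C-a had r = -0.19 within groups over 31 birds.

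The wider pathways were looked at through 8 lists of other guidance genes, with 97 tested spots of 56 genes. None passed the test for line or for age in limma after Benjamini-Hochberg adjustment, where 0.273% of all spots passed for line and 0.541% for age. At an unadjusted p of 0.05, 8 of the 97 spots passed for line and 7 for age, where 7.22% and 8.53% of all tested spots did, so that these counts were near the general rate. The median line difference of the 97 spots was -0.04, compared with 0.00 over all tested spots, with 42 spots above 0 and 55 below.

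Among the other semaphorins, 16 spots of 8 genes were tested, of which 4 were above 0 and 12 below, with a median difference of -0.05. The relatives of SEMA3C and SEMA3F in class 3 were SEMA3B, at 0.10 (SE 0.07) and -0.11 (SE 0.09) on a pair of spots, SEMA3D at -0.16 (SE 0.12), and SEMA3G at 0.11 (SE 0.33), -0.18 (SE 0.13) and -0.13 (SE 0.07). Their adjusted p-values for line were 0.797 to 0.992. Spot SEMA3C-a was chosen for its line difference, so nothing is read from its size beside that of these relatives. In the membrane-bound classes, SEMA4G stood at -0.05 (SE 0.11), SEMA5B at 0.00 (SE 0.25), SEMA6D at 0.02 (SE 0.16) and -0.17 (SE 0.10), and the 4 spots of SEMA7A between -0.19 (SE 0.18) and 0.09 (SE 0.07). The pair of SEMA4B spots was dim, at 1.78 and 2.00 times background, with -0.38 (SE 0.45) and -0.05 (SE 0.29).

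Receptors of the semaphorins other than PLXND1 gave 7 spots of 4 genes, with a median line difference of -0.07. NRP2, the neuropilin that binds SEMA3F, had -0.07 (SE 0.06) and -0.01 (SE 0.11) on its spots. PLXNA1, a plexin that pairs with neuropilins, had 0.06 (SE 0.10) and -0.29 (SE 0.16), PLXNB2 had -0.14 (SE 0.09) and -0.15 (SE 0.14), and PLXNC1, the receptor of SEMA7A, 0.02 (SE 0.12). All had adjusted p-values for line of 0.79 or more. For age, 1 NRP2 spot had the lowest unadjusted p of the receptors, 0.0103, with a change of -0.54 (SE 0.15) between week 7 and week 1 and an adjusted p of 0.335. The other NRP2 spot had 0.15 (SE 0.08).

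Downstream of the receptors, 32 spots of 18 genes for signaling inside the cell had a median difference of 0.04, with 18 above 0 and 14 below, none passing the adjusted test and 4 of 32 passing without adjustment, against 7.22% of all tested spots. CRMP1, a collapsin response mediator protein that carries semaphorin signals to the cytoskeleton, was at 0.24 (SE 0.09, adjusted p = 0.443 in limma), DPYSL2 of the same family at 0.17 (SE 0.08), and the exchange factor TRIO at 0.39 (SE 0.15, adjusted p = 0.452). A second CRMP1 spot had -0.04 (SE 0.13). ARHGEF11, which also passed without adjustment on 1 spot, went the other way at -0.10 (SE 0.05), and its other spot had 0.12 (SE 0.25). These genes were chosen for naming after their values were seen.

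**Figure D5:**
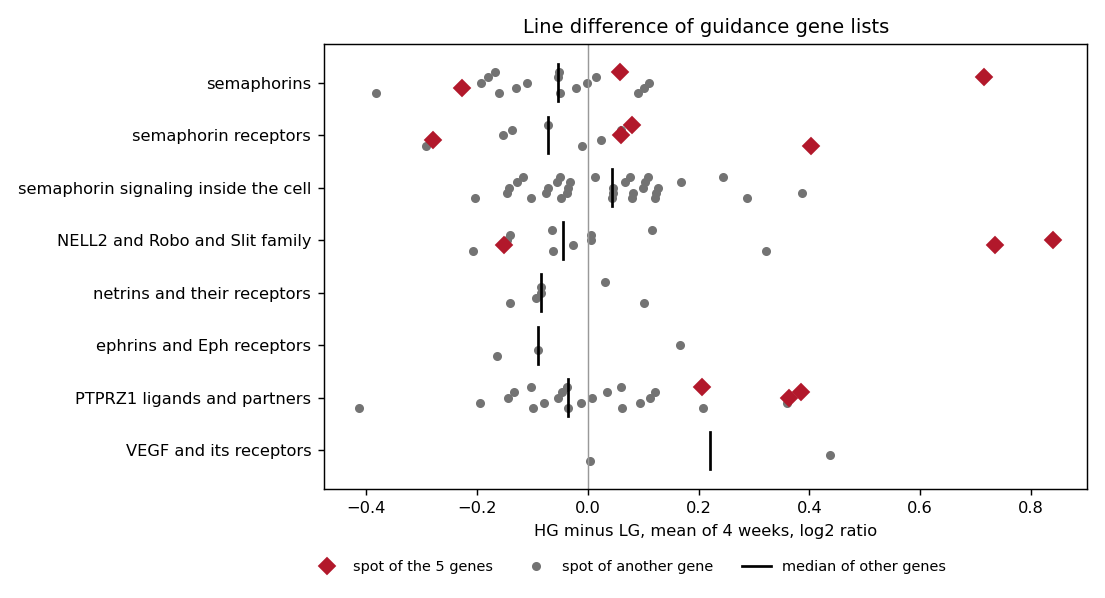
Difference HG minus LG (log2 ratio, mean of the 4 weeks) for every tested spot of 8 lists of guidance genes, with spots of the 5 genes as diamonds, spots of other genes as points and the median of the other genes as a line. The other genes center close to 0 in every list but the one for vascular endothelial growth factor receptors, which holds 2 spots.

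The Robo and Slit group around NELL2 had 10 other spots of 7 genes, 4 above 0 and 6 below. The Slit ligands SLIT1, SLIT2 and SLIT3 stood at -0.15 (SE 0.18), 0.12 (SE 0.09) and 0.01 (SE 0.13), and ROBO4, the endothelial Robo receptor, at 0.01 (SE 0.11). Of the Slit-Robo GTPase activating proteins, SRGAP1 had -0.21 (SE 0.08, adjusted p = 0.452 in limma), -0.14 (SE 0.08) and 0.32 (SE 0.24) on its 3 spots, SRGAP2 had -0.03 (SE 0.08), and SRGAP3 had -0.06 (SE 0.09) and -0.06 (SE 0.11). Spot NELL2-a was chosen for its line difference, so nothing is read from the signs of these spots beside its own.

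Among the ligands and partners of PTPRZ1, 21 spots of 9 genes were tested, 9 above 0 and 12 below. Pleiotrophin (PTN), a heparin-binding ligand of PTPRZ1, had 0.36 (SE 0.15, adjusted p = 0.517 in limma) on a spot at 2.87 times background and 0.06 (SE 0.20, adjusted p = 0.993) on another at 1.78 times. Both PTN spots were thus dim. Contactin-1 (CNTN1), its partner on neurons, was bright on 1 spot, at 49.8 times background, with -0.01 (SE 0.04), and had 0.04 (SE 0.08) and -0.20 (SE 0.13) on its other spots. Midkine was not analysed here. FLT1 had a line difference of 0.44 (SE 0.10, adjusted p = 0.0562 in limma), with 0.03, 0.56, 0.62 and 0.53 at weeks 1, 3, 5 and 7. It also belongs to the study's list of genes that differed between the lines, so that this value is not independent of that choice. KDR, the other receptor for vascular endothelial growth factor, had 0.00 (SE 0.05).

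Markers of cell types that the gland could hold were read beside these genes, as the mean log2 ratio of each list in each bird. In bulk tissue, fewer cells of a type and less RNA per cell cannot be told apart. None of the 30 endothelial spots passed the adjusted test for line or age, 19 were above 0 and 11 below for line, and at week 7 the list lay between -0.17 and 0.03 in the HG birds and between -0.17 and 0.01 in the LG birds. The 14 neuronal spots, 11 above 0 and 3 below, lay between 0.07 and 0.16 in HG birds at that age, and between -0.03 and 0.20 in LG birds. The neuronal and endothelial lists thus overlapped between the lines at week 7. The part of neuronal and endothelial cells in the SEMA3C, PLXND1 and NELL2 values was not tested.

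Lists of other cell types were separated at week 7. Of the 15 spots for fibroblasts and connective tissue, 12 were above 0 and 3 below for line, with none past the adjusted test. The list lay between 0.03 and 0.08 in HG birds and between -0.23 and -0.01 in LG birds. This was the same direction as on spots SEMA3C-a, PLXND1-a and NELL2-a. The 3 erythrocyte spots lay between -1.48 and -0.76 in HG birds and between -0.57 and 0.83 in LG birds, the opposite direction at that week. In HG birds the erythrocyte list averaged 0.60, 0.30 and -0.27 at weeks 1, 3 and 5. The LG birds averaged -0.06, -0.26 and -1.54, lower at each of these weeks. The mean line difference was above 0 on all 3 erythrocyte spots, with none past the adjusted test. The part of these cells in the values of the 5 genes was not tested.

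Glial and folliculostellate markers were read beside PTPRZ1. Of 12 spots, 3 were above 0 and 9 below for line, with a median of -0.14 and none past the adjusted test. The list averaged -0.03, -0.18, -0.33 and -0.37 at weeks 1, 3, 5 and 7 in HG birds and -0.02, -0.04, -0.01 and -0.03 in LG birds. At week 7 it lay between -0.39 and -0.35 in HG birds, and between -0.15 and 0.15 in LG birds. Its defining members were dim in part, with S100B at 2.71 times background and GFAP at 57.9 and 3.14 on its spots. The part of these cells in the PTPRZ1 values was not tested.

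Of the 26 spots of hormone cell markers, 16 were above 0 and 10 below for line. The adjusted test was passed by 3 of them for line and 2 for age, where 0.273% and 0.541% of all tested spots passed. The 3 for line were higher in HG birds: LHB at 1.11 (SE 0.18), FSHB at 1.16 (SE 0.22) and TSHB at 0.87 (SE 0.14). They encode the beta subunits of luteinizing hormone, follicle-stimulating hormone and thyrotropin (limma, adjusted p = 0.00189, 0.0153 and 0.00189). All 3 are also in the study's list of genes that differed between the lines, so that these p-values are not independent of that choice. Their part in the higher NELL2, SEMA3C and PTPRZ1 of HG birds was not tested.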

How the data were processed

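Total RNA from anterior pituitary glands was amplified, labeled and hybridized by the authors, with 1 array per bird, the bird in Cy3 and the pool in Cy5, and no dye swap. The deposited intensity values are spot sums and local backgrounds that the authors read from the scans with Spotfinder 2.2.4. The deposited log2 values are ratios that the authors normalized with MIDAS 2.18, and they were used as an alternative. Spots in that table had at least 2 times background in both channels. Whether the intensities were already background-subtracted is not stated, and the dimmest spots keep a floor near background, so they were taken as not subtracted.

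Flagged spots were set to missing, and background was corrected by normexp with an offset of 50. Ratios were normalized by loess within each array and fitted with limma 3.58.1 in R 4.3.3, with a mean for each of the 8 groups. Spots on at least 16 arrays with a value in every group were tested (17193), p-values were adjusted by Benjamini-Hochberg, and a spot passed at an adjusted p of 0.05. The fit was tested on simulated data. SEs come from this fit, and group SDs are between birds. Birds are the replicates, at most 4 per group, which limits the precision.

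Symbols came from the platform table, which lists 10601 spots and was updated through gene identifiers to RefSeq symbols, and from the study's list for 266 spots. The 5 genes and all lists were chosen with earlier results of these data known. Named were all spots of the 5 genes, all tested semaphorins, semaphorin receptors, Robo and Slit family members and receptors for vascular endothelial growth factor, PTN and CNTN1, spots of the other lists past the adjusted test, and the 3 spots most correlated with each gene. Listed alternatives are given in the closing section. The authors' own comparisons were not used. HG replicate 3 of week 1 was not analysed here. Array probes were not placed on a genome.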

Additional observations from a re-analysis of the deposited data

Results flagged for a closer look

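In 2 of 78 groups of 4 birds, 1 bird stood far from the other 3, relative to the range of the group. Chance alone gives about 1 such group in 20. Both cases were the second LG bird of week 5. For spot NELL2-a it had a log2 ratio of -1.08, with the nearest bird at -0.51. For spot PTPRZ1-a it had -0.82, with the nearest bird at -0.38.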

How the results depend on the processing

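The line differences of the 5 genes on the spots the study named kept their sign under all 9 alternatives (8 for SEMA3F) and without each bird in turn. Under the alternatives they ranged from 0.44 to 0.74 for SEMA3C, from -0.31 to -0.20 for SEMA3F, from 0.34 to 0.43 for PLXND1, from 0.75 to 0.85 for NELL2 and from 0.36 to 0.51 for PTPRZ1. Leaving out 1 bird gave 0.65 to 0.77, -0.34 to -0.13, 0.38 to 0.44, 0.77 to 0.88 and 0.31 to 0.43 for the same genes in this order. The lowest SEMA3C values were those of the authors' normalized values (0.45, and 0.44 with a block). The age tests of all 14 spots stayed above a p of 0.05 throughout, with a lowest adjusted p of 0.102 for SEMA3F (deposited values with a block) and, in the two-way model, a lowest unadjusted p of 0.0753 for the same gene.

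Counts over all spots depended on the setting. For line (47 in the fit described) they were 188 with the deposited normalized values, 109 without background correction, 98 with array weights and 1232 by the methods' two-way model without adjustment. For age (93) they were 158 with the deposited values, 55 with median centring, 52 with all positive spots kept, and 60 and 1490 by the two-way model with and without adjustment. Leaving out 1 bird gave 30 to 139 for line, lowest without HG replicate 1 of week 1, highest without HG replicate 4 of week 1, and 72 without HG replicate 3 of week 3. For age it gave 52 to 112, lowest without HG replicate 4 of week 7, and 57 to 61 without HG replicate 1 or LG replicate 2 of week 1, or HG replicate 2 or LG replicate 4 of week 7.

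Other guidance genes gained 1 call for line, FLT1, with print-tip loess, without background correction, with spots on all 31 arrays, with array weights, and without HG replicate 4 or LG replicate 3 of week 1, HG replicate 2 of week 5 or LG replicate 2 of week 7, so that leaving out 1 bird gave 0 to 1. The deposited values gave 2, FLT1 and SRGAP1. The two-way model without adjustment gave 8 for line and 8 for age.

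Replicate numbers shared by the groups were not used as a pairing in the fit described or in the likeness values within groups. Arrays of the same number were more alike, with a mean correlation of 0.195, against -0.06 for other numbers. Over 15 pairs of HG and LG birds with the same week and number, deviations from the group means correlated at -0.09 to 0.43, with 12 pairs over 0.1, and 27 of 31 arrays were most like their own number. With the number as a block, calls were 80 for line and 146 for age, and no call among the 5 genes changed. A block on the deposited values, added after the data were seen, gave 290 for line, 243 for age and 4 for line among guidance genes (CRMP1, SRGAP1, NCAM1 and FLT1). The causes of these changes were not tested.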
